A study of Homo sapiens with 10 samples.

Results

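CPT1A overexpression was compared with empty virus in LNCaP-C4-2 cells by RNA sequencing, across all expressed genes. The members are the 5 samples that the labels place in the overexpression experiment, of 10 in the series. They are 3 samples of cells carrying a CPT1A cDNA lentivirus (OE) and 2 samples of cells carrying the control lentivirus, an empty vector (EV). Both were selected with blasticidin at 5 ug/ml. The other 5 samples carry a control shRNA, which the labels call scrambled (NT, 2 samples), or an shRNA against CPT1A (KD, 3 samples), and were selected with puromycin at 1 ug/ml. They are used here to estimate the spread and for values set beside those of OE. All cells grew in RPMI with fetal bovine serum, antibiotics, HEPES, non-essential amino acids and pyruvate. The study examined what raising or lowering CPT1A does to gene expression and to reactive oxygen species in these cells. Libraries of polyadenylated RNA were made with the NuGen Universal Plus mRNA kit and read in pairs on a NovaSeq instrument. The labels do not give the promoter of the cDNA, nor say whether samples of a group are separate cultures or transductions, so each p measures the spread between these samples only. The counts per sample were 25394853 and 24225383 in EV 1 and EV 2, and 26293196, 23555205 and 27214018 in OE 1, OE 2 and OE 3. Over all 10 samples they ranged from 23555205 to 28615770.

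CPT1A is an enzyme of the outer mitochondrial membrane that joins long-chain acyl groups to carnitine. This step admits long-chain fatty acids to the mitochondrial matrix, where beta-oxidation breaks them down to acetyl-CoA. Malonyl-CoA, an intermediate of fatty acid synthesis, inhibits the enzyme, so that making and burning fatty acids are held apart. LNCaP-C4-2 is a castration-resistant line derived from LNCaP, a human prostate cancer line with luminal features.

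The luminal identity was checked against marker genes. All 13 luminal markers listed were expressed, and their summed level was 11208 and 10767 CPM in EV and 14287, 14724 and 14302 CPM in OE, with KLK3 the most abundant. CPM are counts relative to the size of the library, scaled with TMM, a method that corrects for a few genes taking a large share of a library. Of these 13 markers 7 rose and 1 fell in OE, where 11.6% and 10.3% of all tested genes rose and fell. Markers of other cell types were absent or low. The basal markers KRT5, KRT15, KRT6A and TP63, the leukocyte markers PTPRC and CD3E, and the endothelial markers PECAM1, CDH5 and KDR had 0 counts in every EV and OE sample. So did the neuroendocrine markers CHGA, CHGB and NEUROD1, and CAV1 and CAV2, which mark androgen-independent prostate lines. Other members of these lists had counts, with KRT14 (basal) at 0.487 to 1.27 CPM, VWF (endothelial) at 6.28 to 9.46 CPM and VIM, listed with CAV1, at 30.4 to 35.4 CPM. The leukocyte markers CD14, LYZ and CD68 had at most 5 counts in a sample. Of the fibroblast markers COL1A2 and DCN had 0 counts, COL1A1 had 8.46 to 12.8 CPM and PDGFRB 1.62 to 2.91 CPM. A count of 0 allows up to 3 counts, or 0.116 to 0.136 CPM in these samples, and such floors and intervals cover counting error only.

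CPT1A itself had 326 and 318 CPM in EV and 869.9, 914 and 861 CPM in OE. Every OE sample stood above both EV samples, at 2.74-fold. The counts do not tell the introduced cDNA from the cell's own gene.

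The first question was how many genes differ between OE and EV and by how much. Of 17230 tested genes, 2004 (11.6%) rose and 1774 (10.3%) fell in OE, at an adjusted p under 0.0001 (edgeR's quasi-likelihood test, Benjamini-Hochberg). Rose, fell and called are used below only for genes past that limit. Most changes were small, with a median absolute log2 fold change of 0.54 among called genes. At least 2-fold changes were reached by 171 genes that rose (0.992%) and 335 that fell (1.94%). The median log2 fold change of all tested genes was -0.02, with quartiles of -0.35 and 0.28. The count of calls rests on the small EV group. Without EV 1 there were 1153 higher and 912 lower, and without EV 2 there were 922 and 818, where the single remaining EV sample is assumed to vary like the other groups. With scaling by library size alone, 1220 genes rose and 2168 fell, so that higher genes made up 36.0% of the calls in place of 53.04%, and the median fold change moved by -0.10. The TMM factors were 1.01 and 1.02 in EV and 0.954, 0.939 and 0.950 in OE.

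**Figure D1:**
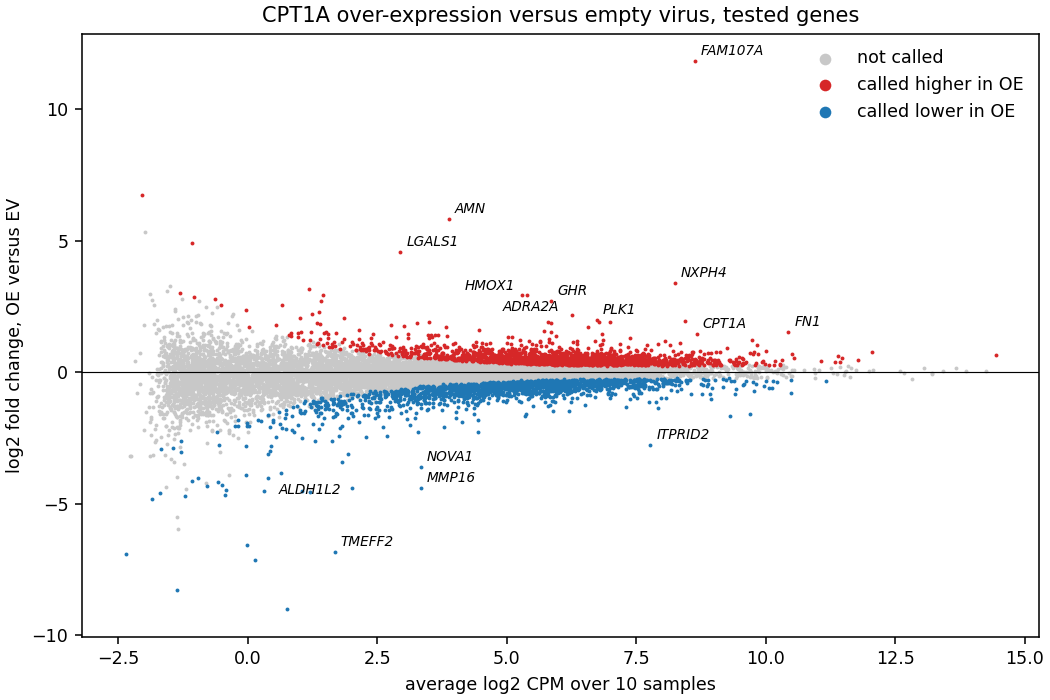
Log2 fold change of OE versus EV against average log2 CPM over 10 samples, with each point a tested gene placed by the annotation outside chromosome Y, red for genes called higher and blue for genes called lower. FAM107A stands at 11.84 and TMEFF2 at -6.84, while the median of all tested genes is -0.02.

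The direction of change followed the base composition of the transcripts. The GC content was known for 14486 tested genes (84.1%). Genes were divided by it into 5 groups of 2378 or 2379 genes each, which do not hold all of the 14486. In the group with the lowest GC content, 29.0% to 40.4%, 1.77% rose and 33.8% fell, with a median log2 fold change of -0.33. In the group with the highest, 58.0% to 76.0%, 36.1% rose and 3.28% fell, with a median of 0.29. Each OE sample showed the slope, from -0.32 to 0.26 in OE 1, -0.39 to 0.31 in OE 2 and -0.27 to 0.26 in OE 3, while the EV samples stayed within 0.02 of their mean. A slope of the same sign was present in KD versus NT, with medians from -0.19 to 0.19. It was also present in EV versus NT, from -0.19 to 0.18, a comparison that shares the EV samples. Whether the cells or the libraries differ in this way cannot be told apart. An offset for GC content, chosen after seeing the data, was fitted to each sample's dependence on GC content, so it removes this slope by design. With it the medians of these groups lay between -0.007 and 0.02. The offset left 1479 genes higher and 1381 lower, and kept 1952 of the 3598 calls that it could test.

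**Figure D2:**
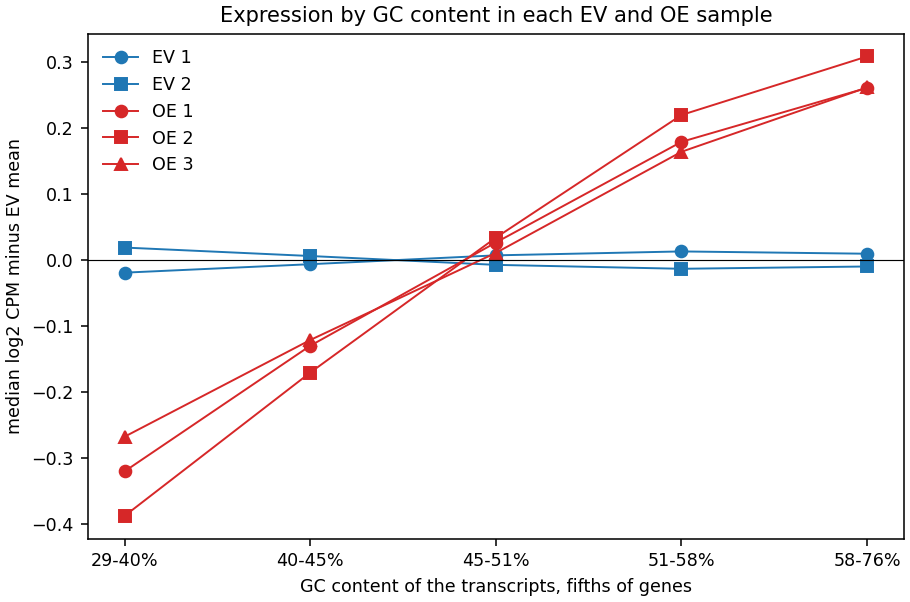
Median log2 CPM of each EV and OE sample minus the EV mean, for 5 equal groups of genes ordered by the GC content of their transcripts. The 3 OE samples run from below 0 in the group with the lowest GC content to above 0 in the highest, and the EV samples lie near 0 throughout.

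The gene that rose most was FAM107A, which encodes a stress-inducible protein that binds actin. It had 0.429 and 0.284 CPM in EV and 1327, 1366 and 1303 CPM in OE, a log2 fold change of 11.84 (SE 0.10, adjusted p = 1.8e-29). All OE samples were high and both EV samples lay near the floor of detection, as did those of NT (0.377 and 0.477 CPM). FAM107A lies at chr3:58564117-58627610. Its neighbour FAM3D, chosen after its values were seen, rose by 1.08 from 2.18 and 1.58 CPM, while ACOX2, on its other side, fell by 0.49. The ACOX2 log2 fold change lost the call without EV 1 and without EV 2 (adjusted p = 9.0e-04 and 9.6e-04).

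On chromosome 12, neurexophilin 4 (NXPH4), NDUFA4L2 and SHMT2 lie next to each other and all rose. NXPH4, a secreted protein of neurons, had 78.2 and 81.8 CPM in EV and 818, 859 and 829.6 CPM in OE, a log2 fold change of 3.38 (SE 0.06, adjusted p = 2.0e-23). NDUFA4L2, a mitochondrial protein known for its response to hypoxia, had 14.3 and 13.9 CPM in EV and 109, 102 and 116.2 CPM in OE, a log2 fold change of 2.95. SHMT2, the mitochondrial enzyme that turns serine into glycine, had 684 and 669 CPM in EV and 1570.5, 1626 and 1531 CPM in OE, a log2 fold change of 1.22. For each of the 3, no OE sample overlapped an EV sample. The annotated ends of SHMT2 and NDUFA4L2 overlap and the labels do not say whether the libraries were stranded, so reads near that end may be counted for either. Other neighbours in this stretch were not called, LRP1 at 0.05 and R3HDM2 at 0.003.

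Some other raised genes also stood beside raised neighbours. AMN, which takes part in vitamin B12 uptake, had 0.624 and 1.10 CPM in EV and 53.2, 41.8 and 51.1 CPM in OE, a log2 fold change of 5.83 (SE 0.18, adjusted p = 4.3e-18). The gene TRAF3, which lies 11163 bases away and was chosen after its values were seen, had 68.1 and 71.2 CPM in EV and 268, 257 and 262 CPM in OE. Both genes were high in every OE sample. AMN overlaps CDC42BPB, which lies on the opposite strand and fell by 0.24, so the value of AMN is less certain. A like pair, chosen after its values were seen, was NUP98, of the nuclear pore, with 183 and 181 CPM in EV and 705, 716 and 695 CPM in OE, and CHRNA10, with a log2 fold change of 1.86. Around the 15 highest genes under the rule for named genes, 74 tested neighbours lay within 200 kb, of which 16 rose and 7 fell, with a median of 0.20, where 11.6% and 10.3% of all tested genes rose and fell. These 16 include NXPH4 and NDUFA4L2, each of which is also among the highest 15. The 7 that fell include BBIP1, PDCD4 and SHOC2 beside ADRA2A, at -0.74, -0.79 and -0.53. ADRA2A and these neighbours lie in the low segment of chromosome 10 described below. Around the 13 placed genes among the 15 lowest there were 23 neighbours, of which 5 fell, with a median of -0.20.

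The other genes among the highest 15 had varied functions. LGALS1, a lectin that binds galactosides, had 1.01 and 0.771 CPM in EV and 21.9, 21.7 and 20.5 CPM in OE. HMOX1, heme oxygenase, had 12.8 and 13.7 CPM in EV and 109, 83.0 and 107 CPM in OE, a log2 fold change of 2.92 (SE 0.12, adjusted p = 3.3e-15). GHR, the growth hormone receptor, had 21.8 and 20.9 CPM in EV and 135.4, 141 and 147 CPM in OE, a log2 fold change of 2.72. In these 3 genes the OE samples lay far above EV, and OE 2 had less HMOX1 than OE 1 and OE 3. ADRA2A, an adrenergic receptor, rose by 2.19 and had already been higher in EV than in NT, at 1.45. LGALS1, HMOX1, GHR and ADRA2A also rose in KD versus NT, by 3.09, 0.76, 0.61 and 1.07. So did EPHA5, PLA2G4D, STC1, IFITM1, CYP11A1 and IGSF21, by 1.58 to 2.64, while FOS was 0.07 there and not called. In OE versus EV, FOS, EPHA5, PLA2G4D, STC1, IFITM1, CYP11A1 and IGSF21 rose by 2.05 to 3.15, from EV means of 0.517 to 1.71 CPM. The CYP11A1 log2 fold change lost the call without EV 1 and without EV 2 (adjusted p = 3.0e-04 and 2.6e-04).

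**Figure D3:**
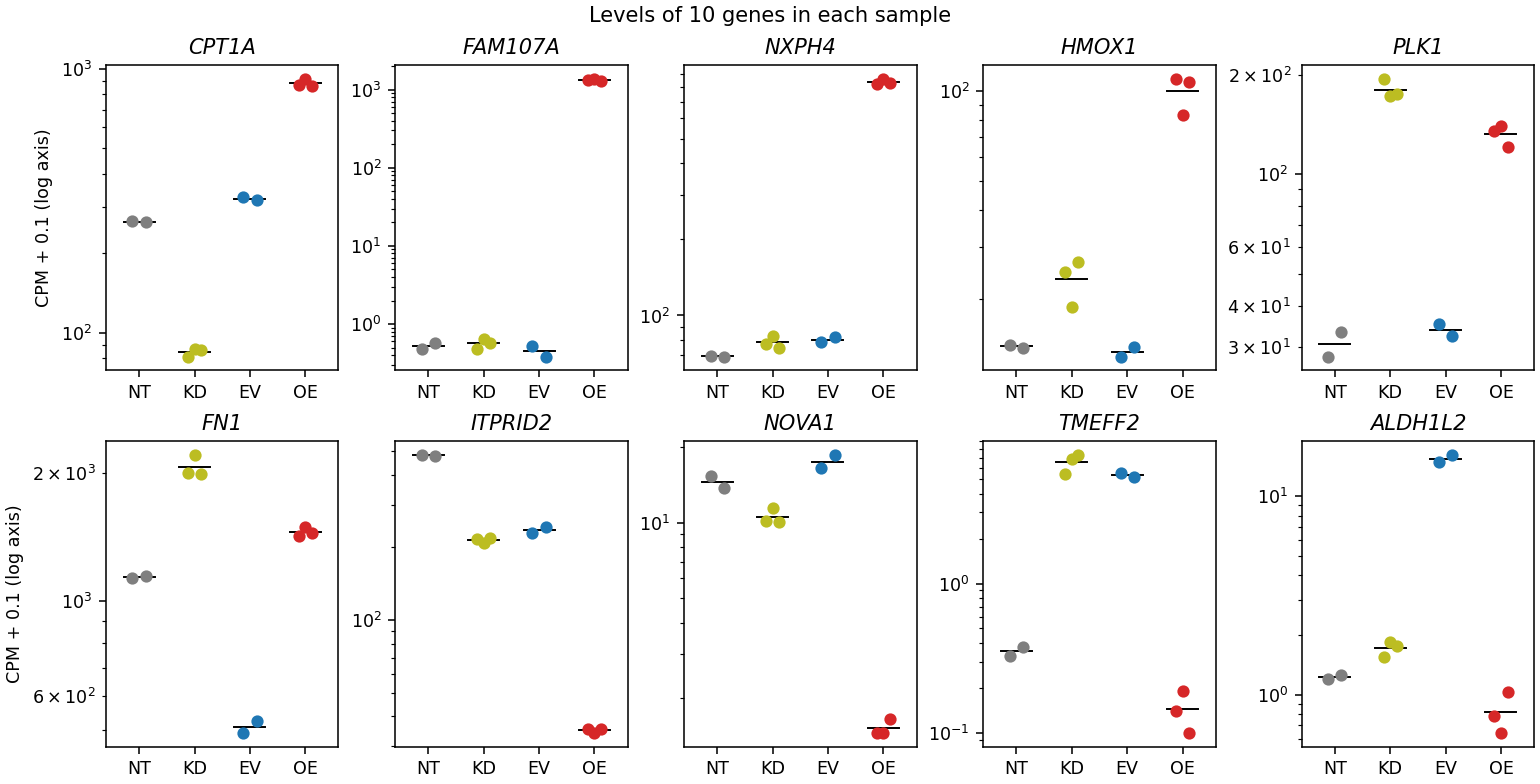
CPM plus 0.1 on log axes for 10 genes in each sample of the 4 groups, with a line at each group mean. CPT1A, FAM107A, NXPH4, HMOX1 and PLK1 are higher in every OE sample than in both EV samples, and ITPRID2, NOVA1, TMEFF2 and ALDH1L2 are lower.

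Among the genes that fell most, several were expressed in EV cells and hardly in NT cells. TMEFF2, a transmembrane protein of prostate and brain, had 140 and 125 counts in EV and 1, 2 and 0 counts in OE, with 6 and 7 counts in NT. The EV to OE ratio was 128, with a 95% counting interval from 43.4 to 626. MMP16, a membrane-bound metalloproteinase, had 27.3 and 28.5 CPM in EV and 1.04, 1.13 and 1.74 CPM in OE, a log2 fold change of -4.40 (SE 0.14, adjusted p = 2.0e-17), with 1.43 and 0.913 CPM in NT. ALDH1L2, a mitochondrial enzyme of folate metabolism, had 14.8 and 16.0 CPM in EV and 0.678, 0.543 and 0.929 CPM in OE, a log2 fold change of -4.40. Its NT samples had 1.09 and 1.15 CPM. In these 3 genes the EV samples were above both OE and NT, and EV versus NT, which shares the EV samples, gave 4.36, 4.56 and 3.77. PRRT1B and SEMA6A had the same order of groups, with -3.13 and -2.62 in OE versus EV and 2.23 and 1.80 in EV versus NT. KD cells, of the other arm, also expressed most of these genes, with 5.36, 6.71 and 7.16 CPM of TMEFF2 and 11.5, 12.5 and 13.3 CPM of MMP16. PRRT1B and SEMA6A were higher in KD than in EV, while ALDH1L2 had 1.46, 1.74 and 1.66 CPM. How much of such a fall belongs to the EV line cannot be told apart from the effect of the cDNA with these groups.

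Others were low in OE alone or fell in steps. NOVA1, an RNA-binding splicing regulator, had 16.4 and 18.5 CPM in EV, 1.36, 1.36 and 1.55 CPM in OE and 15.3 and 13.7 CPM in NT, so that OE was the group that stood apart. Its log2 fold change was -3.61 (SE 0.13, adjusted p = 2.6e-16). ITPRID2 had 482 and 480.3 CPM in NT, 229 and 244 CPM in EV and 35.2, 34.1 and 35.2 CPM in OE, a log2 fold change of -2.76 (SE 0.05, adjusted p = 8.3e-23). Its levels did not overlap between any of these 3 groups. RND3, a small GTPase, and SLITRK6 followed the same order of NT, EV and OE, at -4.53 and -3.43. KD samples were below NT too, at 217, 208 and 218 CPM of ITPRID2 and 1.76, 1.03 and 1.53 CPM of RND3. They had 3.79, 1.66 and 3.22 CPM of SLITRK6. For these 3 genes KD versus NT gave -1.17, -1.95 and -1.83, so the step from NT to EV was also present from NT to KD. ZNF730 and ZNF117, zinc finger genes with close paralogs and so less certain, fell by 2.62 and 2.50, and EV and NT overlapped for ZNF730. The imprinted neighbours PEG10 and SGCE on chromosome 7, chosen after their values were seen, fell by 2.26 and 4.12.

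Fibronectin (FN1), a matrix glycoprotein, ran the other way from its control difference. It had 1135 and 1149.5 CPM in NT, 493 and 524 CPM in EV and 1425, 1496 and 1443 CPM in OE. OE was therefore above EV by 1.52 (SE 0.05, adjusted p = 1.0e-16), while EV was below NT by 1.17. Of 25 tested genes for adhesion and matrix, 3 rose and 6 fell, against 11.6% and 10.3% of all tested genes, with a median of -0.11 against -0.02. LAMB1, a laminin chain, fell by 1.76, and COL4A2, a basement membrane collagen, rose by 0.98. The list held 9 lower with the GC offset. With 1 EV sample left out, it held 2 higher and 4 lower in either case.

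Some changes ran along chromosomes. The counts of genes in this paragraph stand against 11.6% and 10.3% of all tested genes that rose and fell. In 271 windows of 10 Mb, the median log2 fold change was above 0.25 in 7, on chromosomes 11, 16, 19 and 22, and below -0.25 in 58. After the GC offset 2 windows lay above and 11 below. A segment of chromosome 6 from 90 to 120 Mb held 82 tested genes with a median of -0.71, of which 43 fell and 1 rose. A segment of chromosome 10 from 110 to 140 Mb held 109 tested genes with a median of -0.57, of which 63 fell and 3 rose. These medians were -0.50 and -0.52 with the GC offset, and -0.05 and -0.02 in EV versus NT, which shares the EV samples. Copy number was not measured, and its part in these values was not tested. Without the genes of both segments 1945 genes rose and 1706 fell. On chromosome 19, 221 genes with ZNF symbols had a median of -0.35, with 37 lower and 11 higher, and 800 other genes had a median of 0.33, with 314 higher and 20 lower. These medians were -0.15 and 0.11 with the GC offset. Of 16 tested genes on chromosome Y, 10 fell in OE, and without the chromosome Y genes 2003 genes rose and 1763 fell.

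The gene lists below were written from general knowledge, with earlier results of these data known. A list is described by how many of its tested members rose or fell, against 11.6% and 10.3% of all tested genes, and by its median, against -0.02. Some counts are at an unadjusted p under 0.05, which 27.8% and 29.2% of 17213 tested genes passed as higher and lower.

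**Figure D4:**
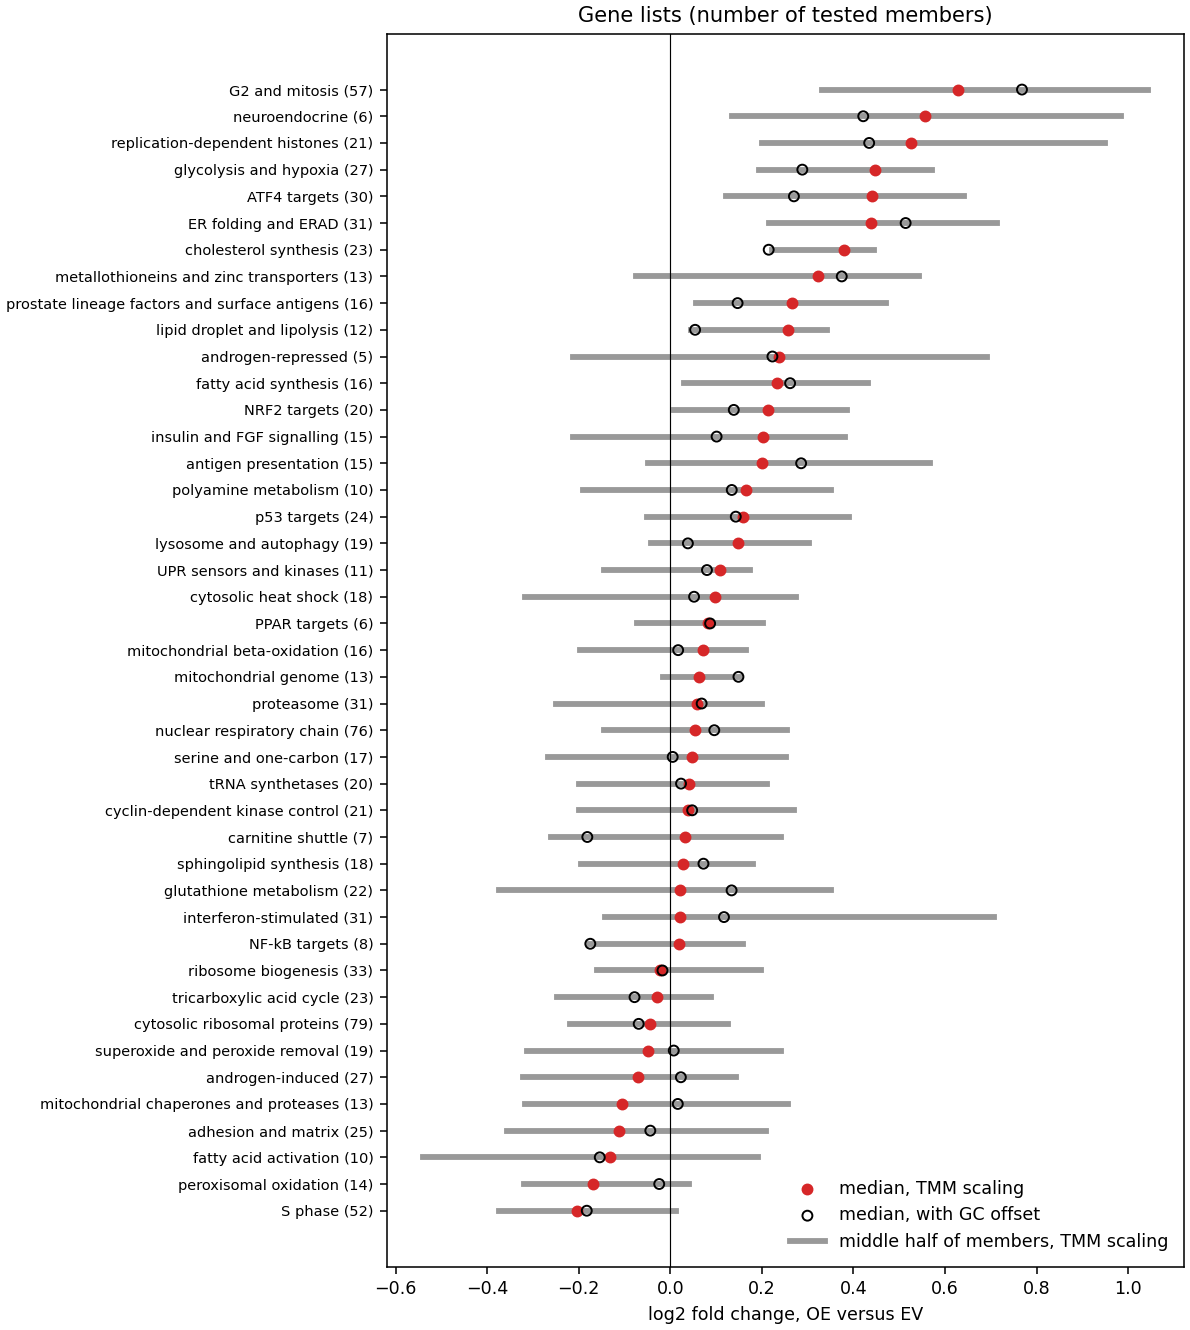
Median log2 fold change of OE versus EV for each gene list, with the number of tested members, filled circles for TMM scaling, open circles with the GC offset and bars for the middle part of the members. The list for G2 and mitosis lies highest at 0.63 and the S phase list lowest at -0.20.

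Of the other 7 genes of the carnitine shuttle, which carries acyl groups across the mitochondrial membranes, 0 rose and 0 fell by edgeR's quasi-likelihood test, and 3 were higher and 2 lower at an unadjusted p under 0.05, where 27.8% and 29.2% of tested genes were. The DESeq2 and limma-voom tests called 0 as well, and 2 rose when the EV and OE samples were fitted alone, namely CPT2 and CRAT, in a fit that called 2540 of 16382 genes higher. CPT2, which returns the acyl group to CoA in the matrix, had 63.0 and 58.7 CPM in EV and 70.2, 73.7 and 73.7 CPM in OE, a log2 fold change of 0.25 (SE 0.06, adjusted p = 8.0e-04). CRAT, which makes acetyl-carnitine, was 0.29 and the carnitine importer SLC22A5 was -0.33, both not called. CROT, which handles medium chains in peroxisomes, had 13.1 and 12.05 CPM in EV and 8.495, 7.15 and 10.3 CPM in OE, lower in every OE sample, with a log2 fold change of -0.53 that was not called either (adjusted p = 0.0012). With the GC offset the CPT2 log2 fold change was 0.57 and passed the limit. The median of the 7 genes was 0.03, and it was -0.06 with library size alone and -0.18 with the GC offset. Of 16 enzymes of mitochondrial beta-oxidation, 1 rose and 2 fell, with a median of 0.07 that turned to -0.03 with library size alone, and with the GC offset 4 fell. ACADM, the medium-chain acyl-CoA dehydrogenase, had 44.3 and 46.3 CPM in EV and 26.8, 23.99 and 28.6 CPM in OE, a log2 fold change of -0.77 (SE 0.08, adjusted p = 2.3e-08). The isomerase ECI1 rose by 0.38 and the electron carrier ETFA fell by 0.25. Without EV 1 and without EV 2, neither ECI1 nor ETFA was called, nor was ETFA without any 1 OE sample, and with the GC offset the ECI1 log2 fold change was 0.08.

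Uptake, activation and storage of fatty acids gave single changes. Of 10 genes that activate fatty acids to acyl-CoA, 1 rose and 2 fell, with a median of -0.13. ACSL3 had 450.5 and 421 CPM in EV and 259, 264 and 277 CPM in OE, a fall that left it above the 169.6 and 173 CPM of NT. SLC27A5 rose by 0.82, and ACSL4, which prefers arachidonate, fell by 1.24, from an EV mean of 5.66 CPM. The ACSL4 log2 fold change was -0.86 with the GC offset (adjusted p = 1.3e-04) and lost the call without EV 1 as well (adjusted p = 2.3e-04). Of 14 genes of peroxisomal oxidation, 1 rose and 3 fell (ACOX2, SCP2 and PHYH, -0.49 to -0.43), with a median of -0.17 that was -0.02 with the GC offset. Of these 3 falls, 1 was called without EV 1 and 1 without EV 2. Among 12 tested genes of lipid droplets and lipolysis, PNPLA2, the lipase that takes the first fatty acid off stored triglyceride, had 109 and 101 CPM in EV and 169, 181 and 173 CPM in OE. All 3 OE samples were higher, with a log2 fold change of 0.73 (SE 0.05, adjusted p = 4.8e-11). Of the droplet coat proteins, PLIN3 rose by 0.48 and PLIN4 fell by 1.15. The list held 2 higher and 1 lower with a median of 0.26, and 4 higher with the GC offset at a median of 0.05, and without EV 2 the PLIN3 log2 fold change was 0.42 and not called.

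Fatty acids are built from malonyl-CoA, and sterols from acetyl-CoA through mevalonate. Of 16 genes for fatty acid synthesis 7 rose and 1 fell, with a median of 0.23, and 0.26 with the GC offset. FASN, fatty acid synthase, had 2287 and 2276 CPM in EV and 3292, 3394 and 3392 CPM in OE, a log2 fold change of 0.56 (SE 0.05, adjusted p = 1.9e-09). SCD, which puts the first double bond into stearate, had 906 and 851 CPM in EV and 1531, 1521 and 1543 CPM in OE, a log2 fold change of 0.80. FADS2, which desaturates essential fatty acids, had 650.2 and 629 CPM in EV and 1321, 1323 and 1322 CPM in OE, a log2 fold change of 1.05. Both EV samples lay below every OE sample for these 3 genes, and EV was itself above NT, by 0.97, 1.04 and 0.99. FADS1 lies within FADS2 on the opposite strand, so reads there may be counted for either. The gene that fell was MLXIPL, a sugar-sensing transcription factor chosen after its values were seen, at -0.77, and it was not called without EV 1, EV 2, OE 2 or OE 3. Of 23 genes for cholesterol synthesis 11 rose and 1 fell, with a median of 0.38, and 0.21 with the GC offset. FDFT1, squalene synthase, and TM7SF2, a sterol reductase, both rose by 0.71, and SREBF2, the transcription factor of the pathway, by 0.45. SC5D, chosen after its values were seen, fell by 0.36 and was not called without EV 1, EV 2, OE 1 or OE 2, nor with the GC offset. Without EV 2, 3 genes of the fatty acid list and 6 of the cholesterol list were called higher, and with library size alone 7 of the cholesterol list. Of 18 genes for sphingolipid synthesis 1 rose and 1 fell, with a median of 0.03. With library size alone 1 rose and 3 fell, with a median of -0.07, and with the GC offset 2 rose and 0 fell. DEGS1, which makes ceramide from dihydroceramide, had 319 and 297 CPM in EV and 499.5, 493 and 486 CPM in OE. ASAH1, a ceramidase, fell by 0.31 and turned to 0.04 with the GC offset, and the ASAH1 log2 fold change lost the call without either EV sample (adjusted p = 3.4e-04 and 4.7e-04).

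Chaperones of the endoplasmic reticulum (ER) fold secreted proteins, and ER-associated degradation (ERAD) removes those that fail. Of 31 such genes 20 rose and 1 fell, with a median of 0.44 in place of -0.02 over all tested genes. With the GC offset 23 rose, with a median of 0.51, and without EV 2 there were 14. The medians of the list in single samples, relative to the EV mean, were 0.00 and 0.00 in EV and 0.38, 0.44 and 0.46 in OE, so that all OE samples were higher. SYVN1, the ubiquitin ligase of ERAD, had 78.9 and 79.6 CPM in EV and 147, 151 and 148 CPM in OE, a log2 fold change of 0.91 (SE 0.05, adjusted p = 4.2e-13). MANF, a secreted ER stress protein, had 109.5 and 111 CPM in EV and 197, 196 and 202 CPM in OE, a log2 fold change of 0.84. SDF2L1, HYOU1 and CRELD2, all of the ER lumen, rose by 1.03, 0.74 and 0.83. The gene that fell was DNAJC10, a disulfide reductase of ERAD chosen after its values were seen, at -0.38, and it was not called without EV 1, without EV 2, or without OE 1 or OE 2.

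The ER stress response element, to which the ATF6 factor and the CCAAT-binding factor NF-Y are known to bind, joins CCAAT and CCACG with 9 bases between them. It was searched on both strands of RefSeq promoters (GRCh38.p14), each from 250 bases before to 50 after the gene start. It was present in 7 of the 28 list genes with a promoter in the table (25%), against 14 of 11221 promoters of tested genes (0.125%) and 22 of 27305 of all promoters (0.0806%). Of those 7 genes 4 rose, namely CRELD2, HSPA5, CALR and XBP1, of which CALR and XBP1 were chosen after their values were seen. Their promoters are shown with the element in capitals. CRELD2 lies at chr22:49918384-49918683 on the plus strand, HSPA5 at chr9:125241294-125241593 on the minus strand, CALR at chr19:12938359-12938658 on the plus strand and XBP1 at chr22:28800520-28800819 on the minus strand.
CRELD2: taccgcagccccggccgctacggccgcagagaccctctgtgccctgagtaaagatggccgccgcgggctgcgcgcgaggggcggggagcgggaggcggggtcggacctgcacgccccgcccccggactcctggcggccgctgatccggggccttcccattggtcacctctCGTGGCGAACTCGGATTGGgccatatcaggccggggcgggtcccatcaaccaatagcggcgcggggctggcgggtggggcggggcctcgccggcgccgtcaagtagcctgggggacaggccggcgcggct
HSPA5: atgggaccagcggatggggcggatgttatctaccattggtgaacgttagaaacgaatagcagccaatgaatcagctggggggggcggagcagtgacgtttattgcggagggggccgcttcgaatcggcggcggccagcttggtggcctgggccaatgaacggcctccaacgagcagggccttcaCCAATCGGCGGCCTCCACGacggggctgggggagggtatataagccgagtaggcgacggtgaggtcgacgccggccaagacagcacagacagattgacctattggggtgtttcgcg
CALR: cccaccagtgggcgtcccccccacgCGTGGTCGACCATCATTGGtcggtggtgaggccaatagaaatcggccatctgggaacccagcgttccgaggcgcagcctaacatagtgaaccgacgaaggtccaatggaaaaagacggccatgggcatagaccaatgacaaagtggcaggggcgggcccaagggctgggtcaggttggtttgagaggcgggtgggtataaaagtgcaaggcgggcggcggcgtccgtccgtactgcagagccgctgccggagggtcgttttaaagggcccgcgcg
XBP1: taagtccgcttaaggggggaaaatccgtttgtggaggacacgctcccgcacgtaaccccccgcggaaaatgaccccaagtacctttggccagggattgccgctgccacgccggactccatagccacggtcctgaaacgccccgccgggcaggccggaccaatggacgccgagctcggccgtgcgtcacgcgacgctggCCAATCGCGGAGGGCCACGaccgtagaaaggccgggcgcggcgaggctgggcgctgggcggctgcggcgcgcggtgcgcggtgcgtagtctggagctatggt
The other 3 genes with the element, CANX, HSP90B1 and ERO1B, were not called. The element was in 4 of 17 promoters of list genes that rose (23.53%) and in 3 of 11 of list genes that did not (27.27%). A match describes the sequence and says nothing of binding in these cells.

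Targets of ATF4, the transcription factor of the integrated stress response, were examined next. Of 30 listed genes 19 rose and 3 fell, with a median of 0.44, and with the GC offset 14 rose and 2 fell, with a median of 0.27. Without EV 1 and without EV 2 there were 13 and 12 higher and 1 lower in each case. NUPR1, a stress-induced nuclear protein, had 216 and 210.5 CPM in EV and 474, 494 and 487 CPM in OE, a log2 fold change of 1.18 (SE 0.07, adjusted p = 1.3e-12). CTH, which makes cysteine from cystathionine, had 35.1 and 40.3 CPM in EV and 67.5, 74.2 and 62.9 CPM in OE, a log2 fold change of 0.85. The OE samples lay above the EV samples in both genes. The glycine transporter SLC6A9 rose by 0.76, the pseudokinase TRIB3 by 0.65 and the secreted stress factor GDF15 by 0.69. The 3 that fell were CBS, the enzyme before CTH in the same pathway, the cystine importer SLC7A11, and XPOT, which exports tRNA and was chosen after its values were seen, at -0.53, -0.48 and -0.29. The CBS log2 fold change lost the call without EV 1 (adjusted p = 1.4e-04), and the SLC7A11 log2 fold change without EV 2 (adjusted p = 2.7e-04) and with the GC offset, at -0.10. The element TTGCATCA, to which dimers of ATF4 and C/EBP proteins are known to bind, was found on either strand of 2 of 27 list promoters (7.41%), against 56 of 11221 promoters of tested genes (0.499%) and 252 of 27305 of all promoters (0.923%). It was in 0.323% of the promoters of tested genes that rose and in 0.727% of those that fell. Of the 2 list genes with a match, FGF21 was not called, and the other was CHAC1, an enzyme that breaks down glutathione, which had 38.3 and 43.6 CPM in EV and 55.5, 63.6 and 54.2 CPM in OE. The CHAC1 log2 fold change of 0.49 lost the call without EV 1, without EV 2, without OE 1, without OE 2, with library size alone and with the GC offset, where it was 0.24 (adjusted p = 0.012). Its promoter on the plus strand of chr15:40953221-40953520 holds the element in capitals.
CHAC1: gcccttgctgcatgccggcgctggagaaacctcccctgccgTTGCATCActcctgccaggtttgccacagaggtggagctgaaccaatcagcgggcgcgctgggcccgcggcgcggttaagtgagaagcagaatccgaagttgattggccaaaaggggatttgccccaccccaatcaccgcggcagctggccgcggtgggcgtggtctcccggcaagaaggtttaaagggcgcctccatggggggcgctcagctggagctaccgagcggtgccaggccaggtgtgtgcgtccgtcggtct

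Serine feeds the folate cycle, which carries single carbon units. Of 17 tested genes 3 rose and 2 fell, with a median of 0.05, and with the GC offset 6 rose and 2 fell. SHMT2, described above, rose most. PHGDH and PSPH, the first and last enzymes of serine synthesis, rose by 0.39 and 0.35, while PSAT1, the enzyme between them, had 428 and 428 CPM in EV and 465, 493 and 438 CPM in OE, a log2 fold change of 0.12 (SE 0.05, adjusted p = 0.057). All OE samples of PSAT1 lay above EV, by an amount not past the limit, and with the GC offset the PSAT1 log2 fold change was 0.28 and passed it. The calls on PHGDH and PSPH were lost without EV 1, without EV 2, and for PSPH without OE 1 or OE 2, and with library size alone, where the PHGDH log2 fold change was 0.29 and the PSPH log2 fold change 0.26. ALDH1L2 and MTR, the B12-dependent methionine synthase, fell by 4.40 and 0.59. The tRNA synthetases, which load amino acids onto tRNA, gave 3 higher and 5 lower of 20. Their median was 0.04. Among the 16 that the GC offset could test, 2 rose and 1 fell. There were 3 and 1 without EV 1. The count of higher genes was 1 without EV 2, and that of lower genes 2 without OE 1.

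Antioxidant enzymes remove reactive oxygen species and keep glutathione and thioredoxin reduced. Of 20 tested targets of NRF2, the transcription factor of the antioxidant response, 5 rose and 2 fell, with a median of 0.21. HMOX1 rose most, and AKR1C2, which has close paralogs and was chosen after its values were seen, rose by 2.79 from an EV mean of 0.158 CPM. NQO1, a quinone reductase, had 60.1 and 58.8 CPM in EV and 80.2, 87.6 and 75.4 CPM in OE, a log2 fold change of 0.44, and without EV 2 the NQO1 log2 fold change was not called (adjusted p = 1.5e-04). Glutathione genes gave 7 higher and 6 lower of 22, with a median of 0.02. GSR, which regenerates glutathione, rose by 0.41, and GCLC, which catalyses the first step of its synthesis, had 48.0 and 51.5 CPM in EV and 34.4, 30.5 and 34.8 CPM in OE, a log2 fold change of -0.58 (SE 0.07, adjusted p = 1.6e-07). All OE samples of GCLC were below both EV samples. Of 19 genes that remove superoxide and peroxide 4 rose and 4 fell, with a median of -0.05, and 2 and 2 with the GC offset. In this list PRDX3, the peroxiredoxin of the mitochondrial matrix, fell by 0.57 and PRDX4, that of the ER, rose by 0.52. PRDX3 lies in the low segment of chromosome 10, which had a median of -0.57. NNT, which makes mitochondrial NADPH, fell by 0.63, and the NNT log2 fold change was -0.35 with the GC offset (adjusted p = 8.2e-04). SOD1 had 133.9 and 127 CPM in EV and 119.8, 124 and 127 CPM in OE, with EV 2 and OE 3 at nearly the same level and a log2 fold change of -0.08 that was not called. The SOD1 log2 fold change was -0.24 with the GC offset and passed the limit. SOD2 of the matrix was lower and SOD3, which is secreted, higher, at -0.42 and 0.64, and both lost the call without EV 1, without EV 2 and with the GC offset. Leaving out EV 1 and EV 2 in turn gave 2 and 1 higher NRF2 targets, 4 and 2 higher and 3 and 3 lower glutathione genes, and 3 and 2 higher and 2 and 3 lower genes of peroxide removal. The GC offset left 1 lower NRF2 target. Library size alone gave 3 higher NRF2 targets and 3 higher glutathione genes.

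The respiratory chain is encoded by the mitochondrial and the nuclear genome. Of the 13 protein genes of the mitochondrial genome 0 were called by edgeR's quasi-likelihood test, DESeq2 or limma-voom, and 4 were higher and 0 lower at an unadjusted p under 0.05, against 27.8% and 29.2% of tested genes. Their median of 0.06 was -0.03 with library size alone, and with the GC offset 3 rose. Of 76 nuclear genes of the respiratory chain and ATP synthase 17 rose and 6 fell, with a median of 0.05 that turned to -0.04 with library size alone, when 9 rose and 10 fell. NDUFB10 and NDUFB11 of complex I rose by 0.47 and 0.58, and NDUFA5 of the same complex fell from 48.9 and 50.5 CPM in EV to 28.2, 29.2 and 29.9 CPM in OE. Without EV 1 there were 7 higher and 1 lower, without EV 2 there were 4 and 1, and without OE 2 there were 3 lower. Under the GC offset 14 rose and 2 fell. In the tricarboxylic acid cycle 1 of 23 genes rose and 4 fell, with a median of -0.03, and with 2 lower without EV 1 and without EV 2. DLD, the subunit that the dehydrogenases for pyruvate and 2-oxoglutarate share, had 138.7 and 147 CPM in EV and 80.0, 79.7 and 83.6 CPM in OE, a log2 fold change of -0.82 (SE 0.05, adjusted p = 7.8e-12). The OE samples were well below EV for DLD. DLD overlaps LAMB1, described above, on the opposite strand, so reads in that stretch may be counted for either. IDH2 rose by 0.39, a call that the GC offset ended, with the IDH2 log2 fold change then at 0.20.

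Glycolysis turns glucose into pyruvate, and hypoxia is known to raise many of its genes. Of 27 tested genes of glycolysis and of the response to hypoxia 18 rose and 1 fell, with a median of 0.45. With the GC offset 13 rose and 1 fell, with a median of 0.29, and without EV 1 and EV 2 in turn 15 and 12 rose. The medians of the list in single samples, relative to the EV mean, were 0.02 and -0.02 in EV and 0.41, 0.38 and 0.43 in OE. SLC16A3, which exports lactate, had 57.3 and 53.9 CPM in EV and 121, 120.0 and 130.3 CPM in OE, a log2 fold change of 1.16 (SE 0.05, adjusted p = 3.9e-14). ALDOA, aldolase, had 41.3 and 41.0 CPM in EV and 79.8, 76.9 and 87.2 CPM in OE, a log2 fold change of 0.98. PGK1, phosphoglycerate kinase, had 456 and 427 CPM in EV and 765, 737 and 773 CPM in OE, a log2 fold change of 0.78. Every OE sample was above both EV samples in these 3 genes. PFKFB4, which makes an activator of phosphofructokinase, and NDRG1, a gene known to respond to hypoxia, rose by 1.00 and 0.79. The 1 gene that fell was LDHB, a lactate dehydrogenase chain chosen after its values were seen, at -0.91 from an EV mean of 4.53 CPM, and it was not called without EV 1, EV 2, OE 1 or OE 2.

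Androgen-responsive genes split. Of 27 genes known to be induced by androgen 6 rose and 6 fell, with a median of -0.07 (0.02 with the GC offset). KLK3, which encodes prostate-specific antigen, had 3487 and 3336 CPM in EV and 5757, 5946 and 5731 CPM in OE, a log2 fold change of 0.77 (SE 0.05, adjusted p = 5.1e-11). KLK2, its neighbour in the kallikrein cluster, had 772 and 685 CPM in EV and 1196, 1248 and 1168 CPM in OE, a log2 fold change of 0.72. KLK15 of the same cluster, chosen after its values were seen, rose by 1.30. All 3 were higher in every OE sample. TSC22D3, which glucocorticoids also induce, rose by 1.02, and CDC14B fell by 1.17. Of 5 tested genes repressed by androgen 1 rose and 1 fell, with a median of 0.24. CAMK2N1, an inhibitor of CaM kinase, had 33.7 and 31.7 CPM in EV and 112, 125 and 123 CPM in OE, a log2 fold change of 1.88 (SE 0.09, adjusted p = 2.3e-14). MET, the hepatocyte growth factor receptor, had 15 and 30 counts in EV and 3, 2 and 4 counts in OE, and the MET log2 fold change was not called without EV 2 (adjusted p = 0.0054) nor without any 1 OE sample.

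Of 16 lineage factors and surface antigens 7 rose and 2 fell, with a median of 0.27. HOXB13, a homeobox factor of the prostate, had 421 and 409.7 CPM in EV and 665, 721 and 664 CPM in OE, a log2 fold change of 0.72. GATA2 rose by 0.51, and the adhesion molecule EPCAM fell by 0.58. In this list 4 rose with the GC offset, 3 with library size alone and 3 without EV 2, and 1 fell without EV 1, EV 2 or OE 1. The neuroendocrine list had 6 of 20 genes tested, the rest being too low to test, with a median of 0.56. NXPH4, ENO2, a neuronal enolase, and DLL3, a Notch ligand, rose, by 3.38, 1.12 and 0.55. ENO2 had 17.8 and 20.2 CPM in EV and 42.0, 37.8 and 44.3 CPM in OE. SYP had 2.57 and 2.11 CPM in EV and 3.27, 3.98 and 3.21 CPM in OE, higher in each OE sample but with a log2 fold change of 0.57 that was not called (adjusted p = 0.014). REST, of the same list, was lower, at -0.21, and not called either (adjusted p = 0.038). Of the 6 tested genes 4 had a log2 fold change above 0. NXPH4, ENO2, SYP and NCAM2 were picked out by the study's authors as higher in OE than in KD in these same data. The median and the calls of this list are therefore not independent of the data. NCAM2 was not called. The DLL3 log2 fold change lost the call without EV 1 (adjusted p = 0.0017), without OE 3, with library size alone and with the GC offset.

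The median was higher than that of all tested genes in 1 cell cycle list and lower in the other. Genes of G2 and mitosis are made late in the cycle and build the spindle, while S phase genes copy the DNA. Of 57 genes of G2 and mitosis 32 rose and 0 fell by edgeR's quasi-likelihood test, and 44 were higher and 0 lower at an unadjusted p under 0.05 (27.8% and 29.2% of tested genes), with a median of 0.63 in place of -0.02 over all tested genes. DESeq2 and limma-voom called 31 and 27 higher and 0 lower. With the GC offset 42 rose, with a median of 0.77, and without EV 1 or EV 2 the count was 26 in either case. The medians of this list in single samples, relative to the EV mean, were -0.01 and 0.01 in EV and 0.66, 0.56 and 0.61 in OE. PLK1, a kinase of mitotic entry, had 35.0 and 32.1 CPM in EV and 134.9, 140.3 and 121 CPM in OE, a log2 fold change of 1.98 (SE 0.08, adjusted p = 8.8e-16). CDC20, which activates the anaphase-promoting complex, had 29.8 and 33.6 CPM in EV and 105, 109.8 and 101 CPM in OE, a log2 fold change of 1.73. PTTG1, securin, had 19.7 and 21.9 CPM in EV and 60.3, 62.3 and 59.6 CPM in OE, a log2 fold change of 1.55. No OE sample came near an EV sample in these 3 genes. The cyclins CCNB1 and CCNB2 rose by 1.44 and 1.25. These are bulk samples, so more cells in mitosis and more of these RNAs in each cell cannot be told apart.

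Of 52 S phase genes 2 rose and 9 fell, with a median of -0.20, and -0.18 with the GC offset. CDT1, which licenses origins of replication, had 40.5 and 38.5 CPM in EV and 64.2, 69.6 and 60.2 CPM in OE, a log2 fold change of 0.71 (SE 0.07, adjusted p = 3.1e-08). CLSPN, a checkpoint adaptor, had 13.4 and 13.7 CPM in EV and 6.98, 6.92 and 7.55 CPM in OE, a log2 fold change of -0.92. CDT1 was higher and CLSPN lower in every OE sample. At an unadjusted p under 0.05, 8 S phase genes were higher and 29 lower (27.8% and 29.2% of tested genes), and the medians of the list in single samples, relative to the EV mean, were -0.01 and 0.01 in EV and -0.15, -0.23 and -0.14 in OE. The number of called falls depended on single samples, with 1 lower without EV 1 and 2 without EV 2, and 5, 3 and 4 without OE 1, OE 2 and OE 3. The limma-voom test gave 5. Of 21 genes that control cyclin-dependent kinases, with a median of 0.04, 3 rose, among them the inhibitor CDKN1A at 0.46, and 1 fell, where leaving out EV 2 gave 1 higher and leaving out EV 1 gave no calls, and 1 rose with the GC offset or library size alone. The CDKN1A log2 fold change was 0.23 with the GC offset (adjusted p = 0.0018).

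**Figure D5:**
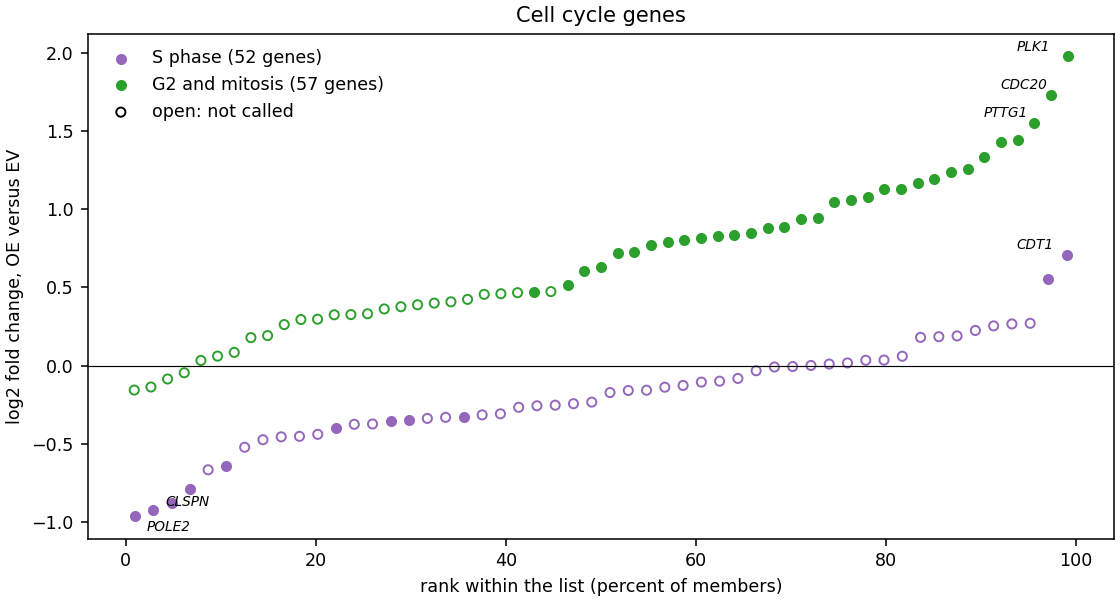
Log2 fold change of OE versus EV for each tested member of the S phase list (52 genes) and the list for G2 and mitosis (57 genes), ordered within the list, with filled points for called genes. PLK1, CDC20 and PTTG1 stand highest, and the called S phase genes lie below 0 except for 2.

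The cell cycle homology region TTTGAA, to which the MuvB complexes of late cell cycle genes are known to bind, was searched in the same way on both strands. It was found in 34 of 49 list promoters for G2 and mitosis (69.4%), against 1044 of 11221 promoters of tested genes (9.30%) and 4212 of 27305 of all promoters (15.4%). Among the list genes that rose it was in 15 of 26 (57.7%), and among those not called in 19 of 23 (82.6%). Over all tested genes that rose it was in 8.65%. The promoters of 4 genes that rose are shown, with each match in capitals, TTCAAA being the same letters on the other strand. All lie on the plus strand, PLK1 at chr16:23678639-23678938, CDC20 at chr1:43358731-43359030, CCNB2 at chr15:59104896-59105195 and GTSE1, which rose by 1.33 and was chosen after its values were seen, at chr22:46296620-46296919.
PLK1: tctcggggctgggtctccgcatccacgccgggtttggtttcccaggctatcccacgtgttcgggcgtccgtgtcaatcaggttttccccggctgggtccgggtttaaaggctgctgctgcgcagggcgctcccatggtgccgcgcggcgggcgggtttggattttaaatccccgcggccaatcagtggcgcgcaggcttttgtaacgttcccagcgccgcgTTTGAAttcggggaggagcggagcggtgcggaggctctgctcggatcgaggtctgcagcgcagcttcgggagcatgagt
CDC20: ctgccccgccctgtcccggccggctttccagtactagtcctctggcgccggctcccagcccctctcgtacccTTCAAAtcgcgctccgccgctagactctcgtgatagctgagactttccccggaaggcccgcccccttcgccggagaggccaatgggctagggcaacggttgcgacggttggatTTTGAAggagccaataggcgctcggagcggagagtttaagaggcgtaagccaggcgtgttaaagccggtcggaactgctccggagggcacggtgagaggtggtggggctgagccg
CCNB2: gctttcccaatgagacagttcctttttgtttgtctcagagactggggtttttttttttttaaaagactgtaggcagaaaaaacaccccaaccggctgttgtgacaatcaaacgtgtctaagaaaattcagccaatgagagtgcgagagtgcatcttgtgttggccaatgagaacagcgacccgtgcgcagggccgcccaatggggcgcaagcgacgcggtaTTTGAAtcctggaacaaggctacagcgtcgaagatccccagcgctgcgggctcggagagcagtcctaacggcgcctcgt
GTSE1: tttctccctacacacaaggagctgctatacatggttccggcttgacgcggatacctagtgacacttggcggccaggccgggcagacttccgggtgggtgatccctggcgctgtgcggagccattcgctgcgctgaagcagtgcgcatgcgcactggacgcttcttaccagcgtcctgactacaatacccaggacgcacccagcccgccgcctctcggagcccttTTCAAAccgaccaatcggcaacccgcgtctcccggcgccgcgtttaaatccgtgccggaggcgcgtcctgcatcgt

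Metallothioneins are small proteins that hold zinc and copper. MT2A had 33.4 and 32.7 CPM in EV and 98.4, 89.4 and 97.6 CPM in OE, a log2 fold change of 1.53 (SE 0.07, adjusted p = 2.1e-14). MT1X and MT1F, close paralogs whose reads may be shared, rose by 1.32 and 1.84. All OE samples were above EV for the 3 genes. With zinc transporters included, 5 of 13 tested genes rose and 3 fell, with a median of 0.32, and with the GC offset 8 rose and the calls of all 3 falls were lost. Without EV 1, EV 2 or OE 1, 1 gene of the list was lower.

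Interferon-stimulated genes gave 7 higher and 2 lower of 31, with a median of 0.02. IFITM1, IFITM2 and IFITM3, paralogs that block the entry of viruses, rose by 2.22, 0.69 and 0.78, and ISG15 by 0.74. BST2, tetherin, had 8.54 and 8.64 CPM in EV and 2.35, 1.81 and 1.97 CPM in OE, a log2 fold change of -2.06 (SE 0.15, adjusted p = 1.0e-10), with 1.28 and 1.11 CPM in NT. KD samples had 2.72 to 3.35 CPM of BST2. Of 15 genes of antigen presentation, with a median of 0.20, 5 rose, among them TAP1, the peptide transporter, at 0.78, and HLA-C at 0.59, whose reads vary with the allele. Without EV 1 this list held 3 higher.

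Growth factor genes changed singly. IGFBP3, which binds insulin-like growth factors, had 31.5 and 29.5 CPM in NT, 6.24 and 8.72 CPM in EV and 20.5, 17.2 and 20.9 CPM in OE, so OE rose by 1.39 from an EV line that was lower than NT by 2.03. IGF1R, their receptor, had 46.4 and 44.9 CPM in NT, 211 and 199.7 CPM in EV and 151, 157 and 155 CPM in OE. It fell by 0.41 in OE while EV was above NT by 2.17. FGFR2, a fibroblast growth factor receptor that lies in the low segment of chromosome 10, fell by 1.67. Of this list of 15 genes 2 rose and 2 fell, with a median of 0.20. The thioredoxin-binding protein TXNIP, chosen after its values were seen, had 8.70 and 9.25 CPM in EV and 45.9, 23.2 and 31.3 CPM in OE, with OE 1 the highest and OE 2 the lowest of the OE samples. CLU, clusterin, chosen in the same way, rose by 1.90.

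The knockdown of CPT1A is the opposite change of the same gene, in samples that share none with OE and EV. In KD versus NT 2823 genes (16.4%) rose and 2199 (12.8%) fell. Genes that rose in OE also rose in KD in 913 cases, 45.6% of the OE list and 32.3% of the KD list. Those that fell in both were 642, 36.2% and 29.2% of the lists. Opposite calls were fewer, with 6.64% of the genes that rose in OE lower in KD and 9.24% of the genes that fell in OE higher in KD. The GC slope runs in the same direction in both comparisons, and its part in the overlap was not tested. Among the genes described above, PLK1, CDC20, FASN, SCD and KLK3 were higher in KD too, by 2.56, 2.41, 1.72, 1.25 and 0.85. CTH, TRIB3, CAMK2N1 and IGFBP3, which rose in OE, fell in KD, with log2 fold changes of -1.69, -1.79, -1.63 and -3.17. By list, 29 of 30 ATF4 targets fell in KD, with a median of -1.02 in place of 0.44 in OE. Of 52 S phase genes 50 rose in KD, with a median of 1.16 in place of -0.20. The list for G2 and mitosis ran the same way in both, with 54 of 57 genes higher in KD and a median of 1.70.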

How the data were processed

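RNA from LNCaP-C4-2 cells was sequenced in 10 samples, in 4 groups. The counts per gene symbol were deposited by the authors, who trimmed read pairs with BBDuk and aligned and quantified them with STAR 2.6.0a on Ensembl annotation of hg38 patch 12. The strand setting and the handling of reads that map to several places were not stated. The file held 57353 symbols, and no sample was left out. Total counts ranged from 23555205 to 28615770, which puts the limit of 3 counts at 0.0995 to 0.136 CPM.

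Genes were filtered with filterByExpr, which left 17230, and scaled with TMM in edgeR 4.0.16 on R 4.3.3. All 10 samples were fitted with 1 mean per group, and edgeR's quasi-likelihood test was applied to each contrast, with Benjamini-Hochberg adjustment over all tested genes. A call needs an adjusted p under 0.0001, and larger changes are counted separately from 2-fold upwards, in each direction. The common biological coefficient of variation was 0.0446. Members and lists were chosen with earlier results of these data known.

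Named genes are CPT1A, the 15 highest and 15 lowest log2 fold changes among called genes with an average log2 CPM of at least 1, the 5 genes with the smallest p in each gene list, and genes named by the study's authors. Genes of chromosome Y are not named. Lists are described by counts of called members and by the median. Alternatives were DESeq2 1.42.0 size factors, library size alone, no filter or a minimum of 10 counts per gene throughout, the Wald test of DESeq2, limma-voom 3.58.1, the EV and OE samples alone, the replicate number as a block, leaving out each EV and OE sample, an adjusted p under 0.05, and leaving out chromosome Y. An offset for GC content and leaving out genes of segments on chromosomes 6 and 10 were chosen after seeing the data. Genes were placed by matching their symbols to an annotation of GRCh38, which placed 14486 of them with a GC content. Figures were drawn with matplotlib 3.10.9 on Python 3.11.15.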

Additional observations from a re-analysis of the deposited data

How the results depend on the processing

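The split between higher and lower genes depended on the scaling. With library size alone 1220 genes were higher in OE and 2168 lower, and 104 were higher at least 2-fold, in place of 2004, 1774 and 171. DESeq2 size factors gave 2127 and 1710. At an adjusted p under 0.05 the counts were 4411 and 4545. Leaving out 1 sample at a time gave 922 to 1696 higher and 818 to 1484 lower, the lowest without EV 2, with fewer samples in the fit. With the replicate number as a block there were 2246 higher and 2012 lower. Residual correlations across genes were -0.00736 and -0.0921 between EV and OE samples of the same number. They were -0.0974 to 0.0974 between those of other numbers. With 2 EV samples the residuals of EV 1 and EV 2 mirror each other, so each value recurs with its sign reversed. These values therefore cannot decide whether the samples were paired.

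Of the 247 named genes, the number that kept direction and call was 242 with DESeq2 size factors, 227 with library size alone, 243 with limma-voom, 238 with the block, 197 without EV 2 and 211 without EV 1. In all these counts a change of direction was counted only where the gene was called in at least 1 of the fits compared. With the GC offset, chosen after seeing the data, 185 of 243 kept both, 42 lost the call and 12 gained it. Under it 4 turned, namely the ASAH1 log2 fold change to 0.0383, the LARS log2 fold change to 0.0427, the HSPD1 log2 fold change to 0.00174 and the NCAM2 log2 fold change from -0.001 to 0.40. Without the genes of the segments on chromosomes 6 and 10, also chosen after seeing the data, 240 of 242 kept both. The cause was not tested. With a floor of 3 counts in each sample, genes near 0.1 CPM are at the limit of detection at this depth.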

Other observations

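Lists not described above are given here as counts of members that rose and fell in OE versus EV, against 11.6% and 10.3% of all tested genes, with the median log2 fold change, against -0.02. Of 24 genes induced by p53, 8 rose and 5 fell (0.16), and leaving out EV 1 or EV 2 gave 3 higher in either case and 3 and 2 lower. Library size alone gave 3 higher, and the GC offset 3 higher and 2 lower. Without OE 1 or OE 2, 5 p53 genes were higher, and 3 were lower without OE 1. Of 21 tested histone genes, which have close paralogs, 6 rose (0.53), with 2 under library size alone and without EV 2 or OE 1, and 3 without OE 2. Of 79 genes of cytosolic ribosomal proteins, which have many processed copies, 6 rose and 15 fell (-0.04), with 3 and 26 under library size alone 3 and 7 without EV 1, and 2 and 10 without EV 2. Of 33 genes of ribosome biogenesis 5 rose and 5 fell (-0.02), and without EV 1 there were 2 higher, with no higher call left without EV 2 or with the GC offset. Without OE 2 and OE 3, 3 were higher, and 2 with library size alone. Of 31 proteasome genes 6 rose and 5 fell (0.06), and leaving out EV 1 gave 4 and 3, while no higher call was left without EV 2, which had 3 lower. There were 3 higher and 1 lower with the GC offset, and 3 and 9 with library size alone.

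Of 18 cytosolic heat shock genes 3 rose and 5 fell (0.10), with 2 and 2 without EV 1 1 and 2 without EV 2, and 2 and 2 with the GC offset. Of 13 mitochondrial chaperones and proteases 2 rose and 5 fell (-0.11), with 2 and 1 under the GC offset and without EV 2, and 2 lower without EV 1. Among 11 tested sensors and kinases of the unfolded protein response 1 rose and 1 fell (0.11), and the gene that rose was not called without EV 1 or EV 2. Both calls were lost with the GC offset, under which 1 other gene rose, and library size alone gave 2 lower. The PPAR target list had 6 of 12 genes tested, of which 1 rose (0.08), and that call was lost without EV 1, EV 2, OE 2 or OE 3, with the GC offset, with library size alone and in limma-voom. The NF-kB target list had 8 of 16 genes tested, of which 1 rose (0.02), a call lost without any 1 EV or OE sample, with library size alone and with the GC offset, under which 1 other gene rose and 1 fell. Of 19 genes of lysosome and autophagy 3 rose (0.15), with 1 without EV 1, EV 2, OE 2 or OE 3, and 1 higher and 2 lower with library size alone. Of 10 genes of polyamine metabolism 2 rose and 2 fell (0.16), with 1 higher without EV 2. The GC offset left 1 lower and no higher call, and library size alone gave 4 lower.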
